A study of Mus musculus with 12 samples.

Results

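The immunoglobulin genes, the joining chain gene Jchain and the B lineage chaperone gene Mzb1 were followed across all arrays of a study of mouse CD8+CD28low regulatory T cells. A table row is a transcript cluster, that is, the summary of the probes designed for 1 transcribed region. Members were the rows whose platform symbol field held a symbol of an immunoglobulin kappa, lambda or heavy chain segment, or was Jchain or Mzb1. The symbol rule took 34 of 35556 rows. Among them was Ighmbp2, a helicase gene that matches by its name only. It was left out, so 33 rows remained. They comprised Jchain, Mzb1, 6 rows with a single heavy chain constant symbol, 4 rows with heavy chain constant and variable symbols, 2 lambda light chain rows, 4 kappa rows that include the constant gene Igkc, and 15 rows of kappa variable or joining segments. The set itself was selected on the comparison of native KO with native WT cells, where these rows were high, so values of that comparison are given as a description, without p-values.

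The study compared gene expression of CD8+CD28low regulatory T cells from C57Bl/6 mice that lack Aire (KO) with the same cells from wild-type mice of that strain (WT). Aire is a transcriptional regulator best known for the display of tissue antigens in the thymus. The 12 arrays formed 4 groups of 3: activated KO, activated WT, native KO and native WT. Activated cells of both genotypes had spent 96 h in culture with an anti-CD3 antibody and allogenic antigen-presenting cells, and native cells of both genotypes were freshly isolated. The titles call the 3 arrays of a group biological replicates. A KO and a WT array of the same state and replicate number also share a number in their descriptions, and the labels do not say what that number marks. The number of mice per array and the purification of the cells are not stated in the labels, so p-values measure only the spread between these arrays.

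Antibodies are built from heavy and light chains, each with a variable region that is assembled by DNA recombination in developing B cells and a constant region. The constant region of the heavy chain sets the class. Plasma cells, the secretory end stage of B cells, make these chains in bulk together with the joining chain, which links IgA and IgM molecules into polymers, and Mzb1, a chaperone that helps fold them. T cells rearrange T cell receptor genes instead and do not secrete antibodies.

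The promoter of Jchain is shown because Jchain, a gene with a row of its own, was high in native KO cells and has an entry in the promoter table used here. The 34 distinct symbols of the member rows included 2 with an entry in the RefSeq promoter table of GRCm38.p6, Jchain and Map3k20, and the other 32 had none there. Jchain lies on chromosome 5 at 88519809 to 88527897, on the minus strand. The 250 bases before its start site, chr5:88527898-88528147, read 5′ to 3′ on the minus strand, are given with each match to GGAA or its reverse complement TTCC in capitals.
Jchain promoter: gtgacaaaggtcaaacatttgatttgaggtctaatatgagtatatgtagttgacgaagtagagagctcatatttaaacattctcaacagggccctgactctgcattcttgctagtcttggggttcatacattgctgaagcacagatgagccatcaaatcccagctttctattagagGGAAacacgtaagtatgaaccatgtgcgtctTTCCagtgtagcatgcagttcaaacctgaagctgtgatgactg
GGAA is the core of sites for ETS factors, a family that includes PU.1, the product of Spi1, which is known to bind the mouse Jchain promoter. There were 2 matches, starting 74 and 43 bases before the start site. At least 1 such match stood in 30698 of the 32851 promoter windows of the table (93.4%). The octamer ATGCAAAT, the classic element of immunoglobulin promoters, was searched on both strands, where its reverse complement is ATTTGCAT. It did not occur in these 250 bases and stood in 526 of the 32851 windows (1.60%).

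The segments of a locus lie close together, and the platform gave 16 of the 33 rows several symbols. In GRCm38.p6 the heavy chain symbols lie on chromosome 12 (Igha at 113256204 to 113260236, Ighg3 at 113357442 to 113361232, Ighm at 113418826 to 113422730). The kappa symbols lie on chromosome 6 (Igkv9-120 at 68049983 to 68050454, Igkc at 70726435 to 70726754) and the lambda symbols on chromosome 16 (Iglc1 at 19061752 to 19062071). Igha, Ighg3, Ighm, Igkc and Iglc1 are annotated there as constant regions, and Ighv1-33 and Igkv4-77 as pseudogenes of variable segments. Of the 33 rows, 24 share a symbol with another member, so rows are not independent measurements and levels of different rows cannot be ranked.

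Values are deposited log2 expression levels. An array's background was set at the 95th percentile of its 1035 olfactory receptor rows, genes of the smell receptors of the nose, and a row was at background in a group when all 3 arrays lay at or under it. Background lay between 6.12 and 6.41 on native arrays, and on activated arrays between 6.15 and 6.73 except on activated KO array 3, where it was 7.31. The interquartile range of that array, 2.19, was the narrowest of all 12. Aire itself was under background on every array, with values between 5.55 and 5.92, and gave no check of the genotype labels. Pearson's r between arrays of a group, across rows, lay between 0.92 and 0.99, and no pair of arrays was identical.

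Immunoglobulin rows stood above background mainly on the native KO arrays. Of the 33 rows, 1, 2 and 5 exceeded background on the activated KO arrays 1, 2 and 3, and 3, 3 and 4 on the activated WT arrays. On the native arrays 24, 20 and 14 exceeded it in KO cells, against 11, 6 and 1 in WT cells. Rows above background on all 3 arrays numbered 12 in native KO and 0 in each of the other 3 groups, and 7 rows were at background in all 4 groups. The mean over the 33 rows was 5.58, 5.50 and 6.18 on activated KO arrays, 5.55, 5.84 and 5.55 on activated WT arrays, 7.25, 6.86 and 6.37 on native KO arrays, and 5.82, 5.77 and 5.71 on native WT arrays. The heat map of levels relative to background shows this block on the native KO arrays with most rows on array 1 and fewest on array 3. In RNA from a pool of cells, fewer cells of a type and less RNA per cell cannot be told apart.

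**Figure D1:**
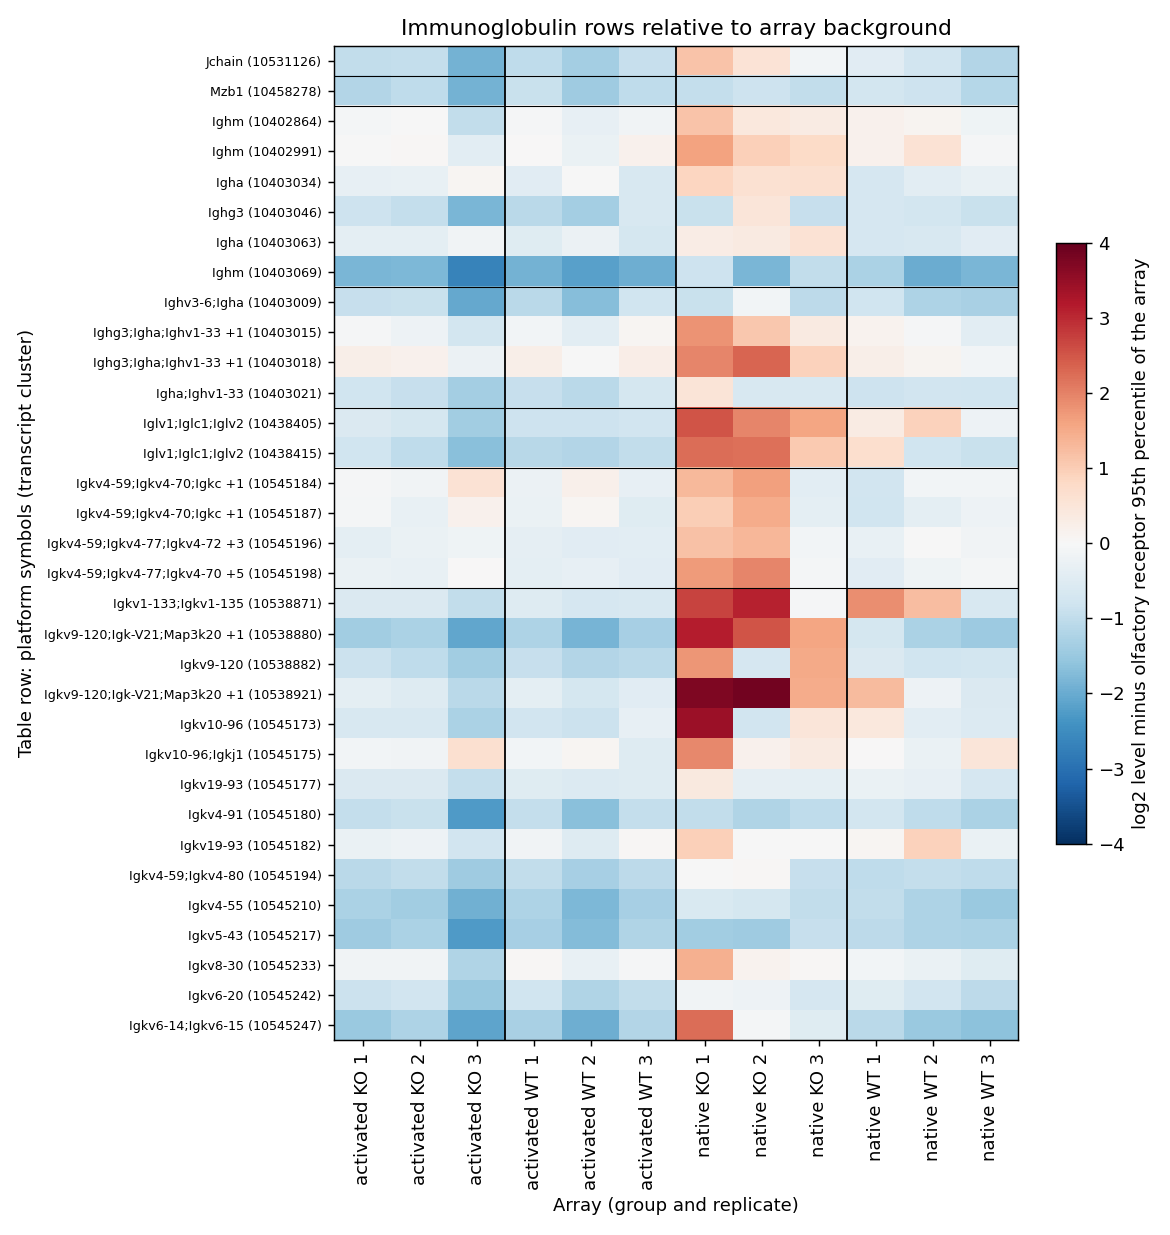
Heat map of the 33 member rows (vertical axis, by role, with transcript cluster numbers) on the 12 arrays (horizontal axis), where colour is the log2 level minus the background of the same array, red above and blue below. Red fills most rows of native KO arrays 1 and 2, with 24 and 20 rows above background, and fewer on native KO array 3 (14), while the activated arrays have 1 to 5 and the native WT arrays 1 to 11.

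Jchain was above background in native KO cells only. Its levels were 5.23, 5.20 and 5.42 in activated KO cells, 5.19, 5.36 and 5.29 in activated WT cells, 7.36, 6.84 and 6.23 in native KO cells and 5.68, 5.48 and 5.24 in native WT cells. The 3 native KO arrays lay above all 9 others, with arrays 1 and 2 over their background and array 3 just under it. Means were 6.81 ± 0.56 in native KO cells and 5.46 ± 0.22 in native WT cells (SD, n = 3 each), a difference of at least 1.48-fold since native WT was at background. Mzb1 showed no such pattern, with levels of 5.05, 5.13 and 5.42 in activated KO cells, 5.34, 5.32 and 5.19 in activated WT cells, 5.27, 5.47 and 5.36 in native KO cells and 5.40, 5.40 and 5.26 in native WT cells. All 12 arrays were at background for Mzb1 and the native groups overlapped, so no size is given.

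**Figure D2:**
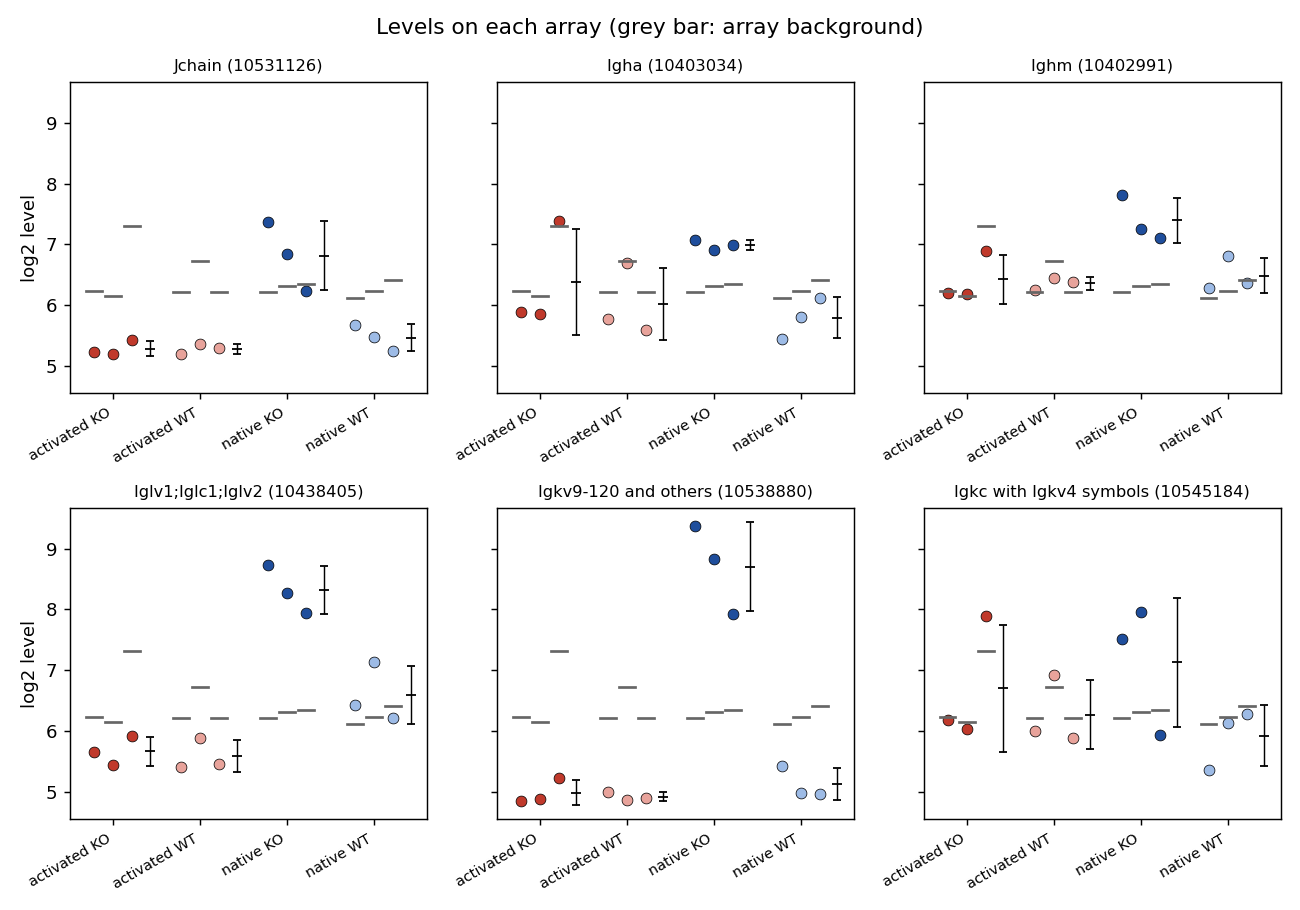
Log2 levels of 6 member rows (vertical axis) on each array (points, 3 per group in the order of their replicate numbers), with the group mean ± SD beside them and the background of each array as a grey bar. Jchain, Ighm, the lambda row and the Igkv9-120 row are highest on the native KO arrays, whereas Igha is highest and the Igkc row second highest on activated KO array 3, an array whose background is 7.31.

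Of the rows with a single heavy chain constant symbol, 3 carry Ighm, the constant gene of IgM, and 2 carry Igha, the constant gene of IgA. Row 10402991 of Ighm had 6.20, 6.19 and 6.89 in activated KO cells, 6.24, 6.45 and 6.39 in activated WT cells, 7.81, 7.26 and 7.11 in native KO cells and 6.28, 6.81 and 6.37 in native WT cells. The native KO arrays lay above the native WT arrays and above all activated arrays, and the difference between the native groups, both measured above background, was 0.91 ± 0.23 (SE). The second Ighm row, 10402864, had 6.15, 6.14 and 6.33 in activated KO cells, 6.16, 6.39 and 6.08 in activated WT cells, 7.36, 6.73 and 6.69 in native KO cells and 6.28, 6.32 and 6.22 in native WT cells, again with native KO above native WT and above all activated arrays, and a native difference of 0.65 ± 0.17. The third, 10403069, was at background on every array, at 4.40, 4.36 and 4.63 in activated KO cells, 4.34, 4.54 and 4.28 in activated WT cells, 5.38, 4.47 and 5.36 in native KO cells and 4.85, 4.23 and 4.57 in native WT cells.

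Igha row 10403034 was nearly even over the native KO arrays. It had 5.89, 5.86 and 7.38 in activated KO cells, 5.77, 6.69 and 5.58 in activated WT cells, 7.07, 6.91 and 6.99 in native KO cells and 5.45, 5.80 and 6.12 in native WT cells. Its native KO levels were nearly equal (SD 0.08) and lay above all native WT arrays, and native WT was at background, which bounds the difference at 1.67-fold or more. Activated KO array 3 nevertheless held the highest level of all 12 arrays, just over that array's background. Row 10403063 had 5.82, 5.75 and 7.16 in activated KO cells, 5.72, 6.48 and 5.51 in activated WT cells, 6.50, 6.67 and 6.94 in native KO cells and 5.46, 5.60 and 5.97 in native WT cells, again with every native KO array above every native WT array (at least 1.37-fold) and the highest level on activated KO array 3. Ighg3, the constant gene of IgG3, had 5.41, 5.20 and 5.48 in activated KO cells, 5.14, 5.35 and 5.57 in activated WT cells, 5.32, 6.79 and 5.44 in native KO cells and 5.45, 5.51 and 5.51 in native WT cells in row 10403046. Native KO array 2 was the single array above background, and the other 11 lay between 5.14 and 5.57.

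Both rows that carry Ighg3, Igha, Ighv1-33 and Ighv1-26 together were high in native KO cells. Row 10403018 had 6.46, 6.31 and 7.08 in activated KO cells, 6.45, 6.72 and 6.48 in activated WT cells, 8.17, 8.62 and 7.28 in native KO cells and 6.34, 6.34 and 6.31 in native WT cells. The native KO arrays exceeded all other arrays, by 1.70 ± 0.30 over native WT. Row 10403015 had 6.17, 5.96 and 6.58 in activated KO cells, 6.10, 6.31 and 6.30 in activated WT cells, 8.01, 7.38 and 6.72 in native KO cells and 6.27, 6.19 and 5.97 in native WT cells, and differed by 1.23 ± 0.27 between native KO and native WT, without overlap. The row of Igha with Ighv1-33 (10403021) had 5.42, 5.24 and 5.96 in activated KO cells, 5.29, 5.64 and 5.50 in activated WT cells, 6.72, 5.66 and 5.71 in native KO cells and 5.28, 5.45 and 5.61 in native WT cells. It exceeded background on native KO array 1 only. The row of Ighv3-6 with Igha (10403009) was at background on all 12 arrays, at 5.30, 5.25 and 5.26 in activated KO cells, 5.15, 5.03 and 5.42 in activated WT cells, 5.32, 6.19 and 5.32 in native KO cells and 5.33, 4.98 and 5.09 in native WT cells.

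The lambda light chain rows, which carry the variable symbols Iglv1 and Iglv2 and the constant symbol Iglc1, were high on all 3 native KO arrays. Row 10438405 had 5.65, 5.44 and 5.91 in activated KO cells, 5.40, 5.88 and 5.46 in activated WT cells, 8.73, 8.27 and 7.94 in native KO cells and 6.43, 7.13 and 6.21 in native WT cells. Native KO exceeded every other array, native WT arrays 1 and 2 were also above background, and the native difference was 1.72 ± 0.26. Row 10438415 had 5.44, 5.12 and 5.64 in activated KO cells, 5.10, 5.54 and 5.23 in activated WT cells, 8.46, 8.50 and 7.39 in native KO cells and 6.78, 5.42 and 5.50 in native WT cells. Here native WT array 1 alone passed background among the WT arrays, and the native difference was 2.21 ± 0.38.

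The 4 kappa rows that include the constant gene Igkc were high on native KO arrays 1 and 2 but not on array 3. Row 10545184 had 6.18, 6.02 and 7.90 in activated KO cells, 6.00, 6.92 and 5.88 in activated WT cells, 7.50, 7.95 and 5.93 in native KO cells and 5.36, 6.13 and 6.28 in native WT cells. Native KO array 3 lay under its background and within the range of native WT, so the native groups overlapped. Row 10545198, with the widest set of Igkv4 symbols, had 5.97, 5.86 and 7.33 in activated KO cells, 5.82, 6.41 and 5.75 in activated WT cells, 7.92, 8.27 and 6.28 in native KO cells and 5.67, 6.06 and 6.33 in native WT cells. Rows 10545187 and 10545196 had the same pattern, the first with 6.14, 5.85 and 7.49 in activated KO cells, 5.96, 6.80 and 5.74 in activated WT cells, 7.19, 7.79 and 5.96 in native KO cells and 5.34, 5.83 and 6.19 in native WT cells. The other had 5.84, 5.89 and 7.13 in activated KO cells, 5.86, 6.28 and 5.78 in activated WT cells, 7.38, 7.63 and 6.25 in native KO cells and 5.81, 6.21 and 6.27 in native WT cells. Native WT was at background in all 4 rows, and the native difference was bounded at 1.66-fold or more in row 10545187 and at 2.36-fold or more in row 10545198. On activated KO array 3, 3 of the 4 rows exceeded the background of 7.31, at 7.90, 7.49 and 7.33.

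Among the kappa variable rows, both that carry Igkv9-120 together with Igkv1-117 had the widest ranges over the 12 arrays. Row 10538880 carries Igkv9-120, Igkv1-117, the older symbol Igk-V21 and Map3k20, a kinase gene of chromosome 2 that the platform lists beside them. Its levels were 4.85, 4.89 and 5.22 in activated KO cells, 4.99, 4.85 and 4.90 in activated WT cells, 9.36, 8.83 and 7.92 in native KO cells and 5.42, 4.98 and 4.96 in native WT cells. All 3 native KO arrays stood above background and all 9 other arrays under it, so that native KO was at least 5.48-fold higher than native WT. Row 10538921, with the same symbols, had 5.83, 5.63 and 6.23 in activated KO cells, 5.82, 6.04 and 5.77 in activated WT cells, 9.96, 10.16 and 7.85 in native KO cells and 7.38, 6.03 and 5.83 in native WT cells, and native WT array 1 also passed background. Its native difference was 2.91 ± 0.56. Row 10538882, with Igkv9-120 alone, had 5.37, 5.13 and 5.92 in activated KO cells, 5.29, 5.57 and 5.15 in activated WT cells, 7.97, 5.63 and 7.86 in native KO cells and 5.53, 5.45 and 5.66 in native WT cells, high on native KO arrays 1 and 3 and at background on array 2.

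Other variable rows with wide ranges were not high on all 3 native KO arrays. Igkv10-96 (10545173) had 5.58, 5.50 and 6.03 in activated KO cells, 5.46, 5.85 and 5.89 in activated WT cells, 9.64, 5.54 and 6.82 in native KO cells and 6.55, 5.82 and 5.86 in native WT cells. Native KO array 1 stood far above all others, native KO array 3 came next, and native KO array 2 lay below all 3 native WT arrays. Native WT array 1 was above background as well. Igkv6-14 with Igkv6-15 (10545247) had 4.74, 4.93 and 5.20 in activated KO cells, 4.91, 4.78 and 5.05 in activated WT cells, 8.44, 6.22 and 5.85 in native KO cells and 5.04, 4.73 and 4.77 in native WT cells. Its native KO arrays lay above all native WT arrays, and native KO array 1 was the only one above background. Igkv1-133 with Igkv1-135 (10538871) had 5.63, 5.59 and 6.33 in activated KO cells, 5.70, 6.06 and 5.57 in activated WT cells, 8.92, 9.40 and 6.29 in native KO cells and 7.99, 7.46 and 5.77 in native WT cells. In that row native WT arrays 1 and 2 were high as well, and the native groups overlapped (1.13 ± 0.74 between native KO and native WT).

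Another 3 variable rows were the only ones of their kind above background in an activated group. The rule on the size of the difference between activated groups therefore made no choice among them. Igkv10-96 with Igkj1 (10545175) had 6.11, 6.00 and 7.94 in activated KO cells, 6.12, 6.80 and 5.70 in activated WT cells, 8.12, 6.47 and 6.71 in native KO cells and 6.13, 5.96 and 6.90 in native WT cells, and was highest on native KO array 1, with activated KO array 3 next. Igkv8-30 (10545233) had 6.08, 6.02 and 6.12 in activated KO cells, 6.27, 6.43 and 6.17 in activated WT cells, 7.63, 6.45 and 6.39 in native KO cells and 6.02, 5.98 and 5.92 in native WT cells. Its native KO arrays lay above all native WT arrays, and its activated KO arrays lay below all activated WT arrays. Igkv19-93 (10545182) had 5.95, 5.95 and 6.55 in activated KO cells, 6.08, 6.21 and 6.25 in activated WT cells, 7.16, 6.30 and 6.33 in native KO cells and 6.18, 7.16 and 6.14 in native WT cells, with 1 KO and 1 WT array high among the native ones. The remaining 6 variable rows, Igkv19-93 (10545177), Igkv4-91, Igkv4-59 with Igkv4-80, Igkv4-55, Igkv5-43 and Igkv6-20, included 4 that were at background on every array. Igkv19-93 (10545177) passed it on native KO array 1 and Igkv4-59 with Igkv4-80 on native KO array 2.

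The native KO arrays differed in which rows were high. A level of 1 log2 unit or more above background was reached by 18 rows on native KO array 1, 11 on array 2 and 5 on array 3, against 2, 1 and 0 on native WT arrays 1, 2 and 3, and by none on the 6 activated arrays. By this measure 4 rows were high on all 3 native KO arrays (both lambda rows and both rows with Igkv9-120 and Igkv1-117). On arrays 1 and 2 alone 6 rows were high, among them 3 of the Igkc rows and both rows with Ighg3 and Igha. The Igkv9-120 row 10538882 was high on arrays 1 and 3, 7 rows on array 1 alone, 1 on array 2 alone and 14 on none.

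In activated cells no member row passed the test between KO and WT. Of the 33 rows, 0 passed the threshold (limma, Benjamini-Hochberg adjusted p under 0.05 over all 35556 rows), where 0.0% of all rows passed. At an unadjusted p under 0.05 there were 0 members and 346 rows of the table. The median difference of activated KO over activated WT was 0.07 for the 33 rows and -0.00 for all rows, with a range of -0.21 to 0.47 among members. In 23 of the 33 rows both activated groups were at background, which leaves no size to give, Jchain, Mzb1 and both lambda rows among them.

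The larger differences between activated KO and WT rested on activated KO array 3. Row 10545184 with Igkc differed by 0.43 ± 0.59 with all arrays, and by -0.17 without activated KO array 3. Igha in row 10403034 differed by 0.36 ± 0.40, and by -0.14 without that array. The row of Igkv10-96 with Igkj1 differed by 0.47 ± 0.56, and by -0.16 without it. Of the 33 differences 24 were positive with all arrays, 14 with array weights and 2 without activated KO array 3, the array with the highest background, and the part of that background in these values was not tested. Igkv8-30, where the groups did not overlap, differed by -0.21 ± 0.26, with activated KO at background, and did not pass the test (limma, adjusted p = 1.00).

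In native cells 31 of the 33 rows were higher in KO than in WT (30 with array weights, with each array centred on its median or without native WT array 3), with a median difference of 0.99 against -0.02 over all rows and a range of -0.03 to 3.59. All 3 KO arrays exceeded all 3 WT arrays in 18 of the 33, where 2.24% of all rows did so. The limma threshold was passed by 1 member, row 10538880 of Igkv9-120, Igkv1-117, Igk-V21 and Map3k20, where 0.00562% of all rows passed. These counts describe the values that led to the choice of the set. Both native groups were measured above background in 11 rows, native WT alone was at background in 15, and both groups were at background in 7. Of the 15, 11 had a bound above 0, from 0.46 for Igha to 2.45 for row 10538880. The second table row past the threshold, 10545220, has no symbol in the annotation used here and was singled out after its values were seen. It had 5.27, 5.18 and 5.52 in activated KO cells, 5.26, 5.43 and 5.20 in activated WT cells, 6.75, 7.33 and 6.74 in native KO cells and 5.19, 5.50 and 5.25 in native WT cells.

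**Figure D3:**
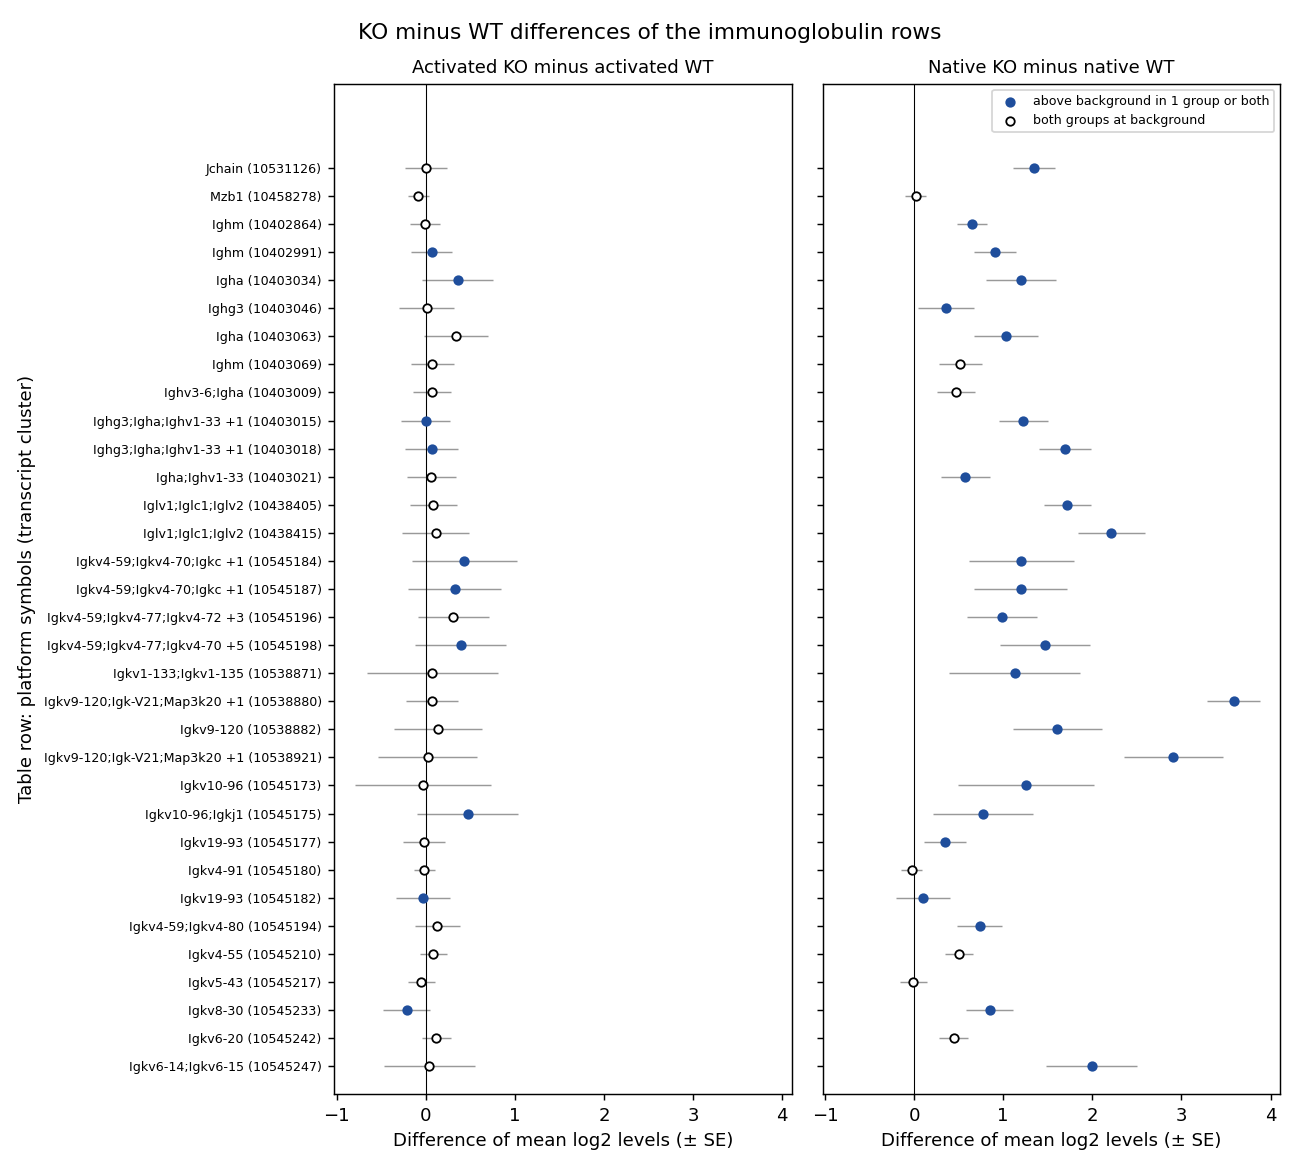
Differences between KO and WT in mean log2 level (horizontal axis, ± SE of the fit, 3 arrays per group) for the 33 member rows (vertical axis), with activated cells on the left and native cells on the right; open circles mark rows at background in both groups. Activated differences lie between -0.21 and 0.47 with 23 open circles, and native differences between -0.03 and 3.59, shown as fitted even where native WT was at background.

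Set against native cells of the same genotype, activated KO cells were lower in all 33 rows, in 32 with each array centred on its median, with array weights or without activated KO array 3 or native KO array 1, and in 31 without native KO array 3. The native KO arrays enter this comparison and the one between native groups alike, so the counts repeat their high values and are given as a description. The threshold was passed, always lower in activated KO, by 13 of 33 rows, where 14.0% of all rows passed in that direction. The median difference was -0.61, against -0.01 over all rows. Row 10538880 of Igkv9-120 was at least 4.42-fold lower in activated KO cells, the lambda rows at least 3.36-fold (10438405) and 2.93-fold (10438415), and Jchain at least 1.19-fold. These bounds are computed against the arrays' background, which was 7.31 on activated KO array 3.

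Of the 13 rows, 6 passed in each of the 19 alternative fits that hold them: Jchain, both lambda rows, row 10403018 of Ighg3 and Igha, and rows 10538880 and 10538921 of Igkv9-120. All of these fits use native KO arrays on which the set was chosen, so this count is a description as well. Both measured Ighm rows were also among the 13, at -0.97 ± 0.23 for row 10402991. Igkv1-133 with Igkv1-135 passed in 8 of 19 fits and Igkv4-55, at background in both groups, in 6 of 19. No row of Igha alone and no Igkc row passed, with differences of -0.61 ± 0.40 for Igha (10403034) and -0.43 ± 0.59 for the Igkc row 10545184.

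In WT cells 1 member row, lambda row 10438405, passed lower on activation, where 13.9% of all rows passed lower. The native WT arrays also entered the comparison on which the set was chosen. The counts and p-values given here, and how they compare with those in KO cells, are therefore a description. Its levels of 5.40, 5.88 and 5.46 on activated WT arrays lay below 6.43, 7.13 and 6.21 on native WT arrays, without overlap. The difference was -1.01 ± 0.26 (limma, Benjamini-Hochberg adjusted p = 0.0189), and at least 1.15-fold since activated WT was at background. It lost the call without activated WT array 1 (adjusted p = 0.0691), activated WT array 3 (0.0670) or native WT array 2 (0.0750). The other lambda row, 10438415, had -0.61 ± 0.38 and did not pass. The median over the 33 rows was -0.08, against -0.04 over all rows, with 21 rows lower and 12 higher (17 lower with each array centred on its median, 24 with array weights).

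The difference between genotypes was also set against state as an interaction. It passed in 0 of 33 rows, where 0.0% of all rows passed (limma), and an unadjusted p under 0.05 was reached by 11 members and 337 table rows. This interaction holds the native comparison and is a description as well.

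Plasma cell and secretion genes did not pass between genotypes in either state, and their native differences were unlike those of the immunoglobulin rows. In native cells the 33 immunoglobulin rows had a median difference of 0.99, with 31 higher in KO. Of 20 plasma cell and secretion genes, all measured, 0 passed between activated KO and WT (median -0.08) and 0 between native KO and WT (11 higher, 9 lower, median 0.01), and at an unadjusted p under 0.05 there were 0 and 0. In each native group 17 of the 20 genes were above background on 1 array or more. Sdc1, the plasma cell surface proteoglycan CD138, and Tnfrsf17, the survival receptor BCMA, were at background in all 4 groups. Between activated and native cells 6 of the 20 genes passed higher and 1 lower in KO, and likewise 6 and 1 in WT, and the other 13 did not pass. Of all rows 7.16% passed higher and 14.0% lower in KO, and 7.75% and 13.9% in WT. The 6 higher were Prdm1, Irf4, Xbp1, Tnfrsf13b, Ell2 and Slamf7 in both. Irf4, a factor of activated T cells and plasma cells, rose by 2.21 ± 0.38 in KO and by 2.77 ± 0.38 in WT (limma, Benjamini-Hochberg adjusted p = 0.00198 and 0.000445). Slamf7, a surface receptor, rose by 1.44 ± 0.26 in KO. Pou2af1, a coactivator that works through octamer sites, was lower on activation by at least 0.98 in KO and 1.02 in WT on the log2 scale. Its native levels were 7.40, 7.43 and 7.79 in KO cells and 7.52, 7.20 and 7.50 in WT cells, which overlap.

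Of 20 B cell markers 19 were measured, and 12 were at background in both native groups, among them Ms4a1 (CD20), Pax5, Ebf1, Blk and Cr2. The other 7 were Cd79a, Cd79b, Cd22, Cd72, Ly86, Cd37 and Ralgps2. Cd37, a tetraspanin of T and B cells, had 11.05, 11.34 and 11.27 in native KO cells, against 11.11, 11.10 and 11.34 in native WT cells. Cd79b, the partner of Cd79a in the B cell receptor complex, lay above background on all 12 arrays. Cd72, a surface receptor of B cells, had 10.20, 10.73 and 10.79 in native KO cells, against 10.37, 10.46 and 10.43 in native WT cells, and the native groups overlapped for Cd37 and Cd72. None of the 19 passed between native KO and WT (13 higher, 6 lower, median 0.07) or between activated KO and WT, and 1 and 1 had an unadjusted p under 0.05. Of all 35556 rows, 424 had such a p (limma) between the native groups and 346 between the activated groups. Cd79a itself had 6.53 on native KO array 1, and 5.21 and 4.92 on arrays 2 and 3, against 5.22, 5.13 and 4.92 in native WT cells. Ly86, which is expressed on B cells and myeloid cells, had 7.59, 6.17 and 7.52 in native KO cells, against 6.14, 6.00 and 5.57 in native WT cells. The mean of the 19 markers was 6.69, 6.46 and 6.59 on native KO arrays, against 6.48, 6.43 and 6.39 on native WT arrays, and its relation to the immunoglobulin values was not tested.

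Markers of other cells that present antigen or belong to the myeloid lineage were higher on native KO arrays 1 and 3. The mean of 13 neutrophil markers was 8.12, 5.97 and 7.58 on native KO arrays, against 6.65, 5.83 and 5.41 on native WT arrays. All 13 were higher in KO (median 1.16) and 0 passed the threshold, with 6 at an unadjusted p under 0.05. Of all 35556 rows, 424 had an unadjusted p under 0.05 (limma) between the native groups. Retnlg, a neutrophil product, had 8.49, 7.74 and 8.21 in native KO cells, against 6.56, 6.10 and 5.48 in native WT cells, without overlap. The mean of 8 MHC class II genes was 8.06, 7.33 and 7.81 on native KO arrays, against 7.24, 7.47 and 7.13 on native WT arrays, with 7 genes higher in KO, 0 past the threshold and 3 at an unadjusted p under 0.05. Activated KO cells were lower than native KO cells in 12 of the 13 neutrophil markers (median -1.75), where 6 passed lower and 1 higher. They were lower in 6 and higher in 2 of the 8 class II genes (median -0.90), where 4 passed lower and 0 higher. Of all rows 14.0% passed lower and 7.16% higher in that comparison. Native KO array 1 had the highest neutrophil, class II and immunoglobulin means of the 3 KO arrays. Native KO array 2 had the lowest neutrophil and class II means of these and the second highest mean of the immunoglobulin rows, 6.86. On the native WT arrays the neutrophil and immunoglobulin means both fell from array 1 to array 3, whereas the class II mean was highest on array 2. The part of such cells in the immunoglobulin values was not tested.

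**Figure D4:**
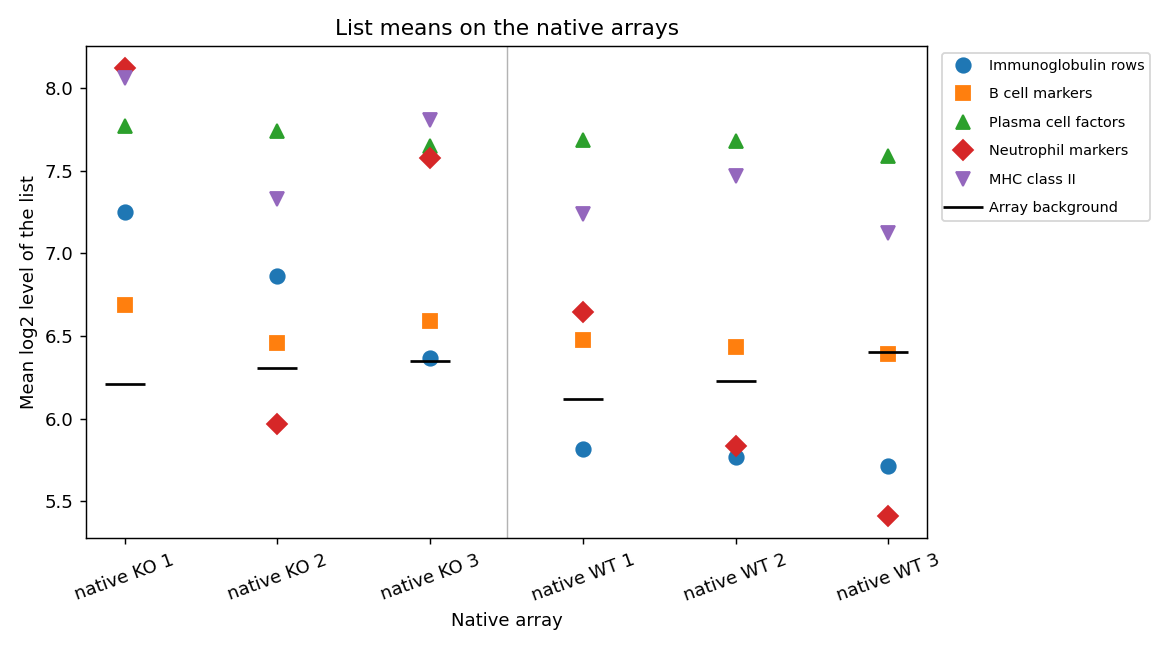
Mean log2 level (vertical axis) of the 33 immunoglobulin rows and of 4 marker lists on the 6 native arrays (horizontal axis, KO left of WT), with each array's background as a black bar. The immunoglobulin mean is 7.25, 6.86 and 6.37 on the KO arrays and 5.82, 5.77 and 5.71 on the WT arrays. The neutrophil mean is 8.12, 5.97 and 7.58 on the KO arrays and 6.65, 5.83 and 5.41 on the WT arrays.

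Among 11 measured monocyte and macrophage markers, 9 were at background in both native groups and 0 passed the threshold between them, with 2 at an unadjusted p under 0.05. Spi1, which encodes PU.1, had 6.43, 5.50 and 6.17 in native KO cells, against 5.35, 5.25 and 5.05 in native WT cells, and exceeded background on native KO array 1 only. Lyz2, a myeloid lysozyme, had 9.62, 6.51 and 9.02 in native KO cells, against 7.03, 6.32 and 5.24 in native WT cells. Markers of plasmacytoid dendritic cells, which also express Mzb1, had 0 of 6 measured genes past the threshold in native cells (limma), with 4 higher in KO, 2 lower, a median of 0.09 and 1 at an unadjusted p under 0.05. Siglech, a receptor of these cells, had 6.40, 5.97 and 6.56 in native KO cells, against 5.75, 5.83 and 5.77 in native WT cells. Ccr9, a homing receptor also found on T cells, had 11.17, 10.46 and 10.39 in native KO cells, against 11.62, 10.74 and 11.08 in native WT cells.

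T cell identity genes had close levels in the native groups. The mean of 13 T cell identity genes lay between 11.11 and 11.15 on native KO arrays and between 11.10 and 11.14 on native WT arrays, with 0 genes past the threshold (median 0.02), and Cd4 was at background in all native arrays. Of 7 genes of V(D)J recombination and early B cells, 0 passed between native groups, and Rag2, a recombinase subunit, was at background in both. Of 3 measured genes of immunoglobulin diversification and transport 0 passed, and Pigr, the transporter of polymeric IgA, was at background in all 4 groups. An unadjusted p under 0.05 was reached by 0 genes of these 3 lists in limma. Xist, the X inactivation transcript of female cells, had 4.98, 10.65 and 9.34 in activated KO cells, 10.83, 11.47 and 11.35 in activated WT cells, 5.26, 9.97 and 10.22 in native KO cells and 10.70, 10.98 and 10.76 in native WT cells. It was low on KO array 1 of each state, and its relation to the immunoglobulin values was not tested.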

How the data were processed

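The deposited table held log2 expression values of 35556 transcript clusters on 12 arrays, which the authors made with tools that included RMA and Partek, per the submitters' processing notes. Their versions and options were not given in the sources used here. Differences near background are compressed by the usual form of RMA. Total RNA was turned into biotin-labelled sense DNA for whole-transcript arrays, per the labels' protocols. Rows were named through the platform annotation, with positions and symbols from RefSeq on GRCm38.p6.

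In R 4.3.3, all rows entered 1 limma 3.58.1 fit of 4 group means over 12 arrays (lmFit, then eBayes without trend or robust moderation), with Benjamini-Hochberg adjustment over 35556 rows and calls at an adjusted p under 0.05. No filter on dim rows was used. The fit was tested on simulated data. Errors of differences are SEs of that fit. Where 1 group lay at background, a bound was computed with its values set to at least the array's background. Array signal has no read depth, and the number of arrays limits the precision.

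Named with all 12 values were Jchain, Mzb1, each row with a constant region symbol and the 6 variable rows with the widest range. The rule also asked for the 4 variable rows that differed most between activated groups among those above background there. Only 3 were above it, and all of these were named. From each marker list up to 3 genes with the smallest unadjusted p were named, beside defining markers chosen after their values were seen. The members and lists were chosen with earlier results of these data known. Alternatives comprised replicate blocks, the arrays compared alone, trend and robust moderation, array weights, quantile normalization, median centring, a filter, 1 row per gene and each array left out.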

Additional observations from a re-analysis of the deposited data

Results flagged for a closer look

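Igkv8-30 (row 10545233), a kappa variable segment, had KO minus WT differences of opposite sign in the 2 states. All 3 activated KO arrays (6.08, 6.02 and 6.12) lay below all 3 activated WT arrays (6.27, 6.43 and 6.17), and all 3 native KO arrays (7.63, 6.45 and 6.39) lay above all 3 native WT arrays (6.02, 5.98 and 5.92). The KO minus WT difference in activated cells less that in native cells was -1.06 ± 0.37 on the log2 scale (SE). It did not pass the threshold in limma, and since it holds the native comparison that was in view it is a description. The activated difference was -0.21 ± 0.26, smaller than its SE. Activated KO and native WT were both at background for this row, and activated WT exceeded background on array 1 only.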

How the results depend on the processing

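No member row passed between activated KO and WT under any alternative run. The call of row 10538880 in native cells was absent when only the 6 arrays compared were fitted (0 rows) and when 1 row per single-symbol gene was kept (0 of 13 member rows, without row 10538880, and a median difference of 0.50). With each array left out in turn the count of called native rows ranged from 1 to 4, 2 without native KO array 2 and 4 without native KO array 3 (7 table rows in each of these fits). The rows without overlap, a count added after seeing the data, ranged from 18 to 23, where with an array left out 5.01% to 7.93% of all rows did not overlap in that direction, against 2.24% with all arrays. Activated against native KO gave 6 rows with only the 6 arrays compared (9.43% of all rows lower), 4 of 13 with 1 row per gene (11.4%), 19 with array weights (14.9%) and 8 to 18 with an array left out, 8 without activated KO array 1 (11.9%) and 18 without activated KO array 3 (12.7%). Activated against native WT gave 0 rows with 1 row per gene and 0 to 1 with an array left out, and the interaction 0 to 1, the 1 without native KO array 3. The cause was not tested, apart from the fewer rows or arrays these fits hold. Same-numbered KO and WT arrays carry a shared number in titles and descriptions that the labels do not explain, and were not taken as pairs. Their deviations from the group means correlated at 0.59, -0.25 and -0.20 in activated and 0.28, 0.31 and -0.02 in native cells. KO and WT arrays of different numbers correlated between -0.54 and 0.44 in activated cells and between -0.35 and 0.06 in native cells. Native numbers 1 and 2 and activated number 1 thus lay above these, and pairing is not excluded in either state. With the replicate number as a block (replicate block) 1 native, 0 activated, 1 WT activation and 12 KO activation rows were called, and with the number of the descriptions as a block 1 native and 0 activated. With an array left out, the difference of activated over native KO cells in the row of Igkv10-96 with Igkj1 ranged from -1.05 to 0.0903, the 0.0903 without native KO array 1, a reversal of a difference of -0.42 that did not pass. Levels near background carry compressed differences, and rows with several symbols cannot be assigned to 1 segment.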
